A study of Homo sapiens with 6 samples.

Results

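Genes of protein folding chaperones in the cytosol and in the endoplasmic reticulum (ER) were followed in ME-1 leukaemia cells after AI-10-49. The members were the rows of the deposited table that carry 1 gene symbol beginning with HSPA, HSPB, HSPD, HSPE, HSPH, HSP90, DNAJ, PDIA, FKBP, or CCT or BAG before a digit. Rows named SDF2L1, HYOU1, CALR, CANX, MANF, CRELD2, HERPUD1 or SEL1L were members as well. This rule reads names only and found 52 of the 6339 rows. By the known place of their proteins, 22 members belong to the cytosol or nucleus, 23 to the ER and 5 to mitochondria, and 2 are pseudogenes. CALR, CANX, SEL1L, HSPA8, HSP90AA1, HSP90AB1 and the mitochondrial HSPA9, HSPD1 and HSPE1 were not analysed here.

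ME-1 is a human acute myeloid leukaemia line that carries inv(16) and therefore makes the fusion protein CBFβ-SMMHC, and AI-10-49 is a small molecule that blocks the contact of this fusion with RUNX1. Cells received AI-10-49 at 1 µM or the solvent DMSO for 6 h, with 3 libraries of each from independent experiments, per the labels. Both groups are the same single cell line, with the same fusion. Of 10 myeloid markers 7 had a row, among them CEBPA at 42.1 ± 5.52 FPKM with AI-10-49 and 128 ± 10.99 FPKM with DMSO (SD, n = 3 each), and MPO, CSF1R and MYH11 were not analysed here. Of 13 markers of other cell types 4 had a row, and the highest was the T cell gene CD3D, at 16.4 ± 0.46 FPKM with AI-10-49 and 32.2 ± 0.95 FPKM with DMSO (SD, n = 3 each). What these markers contribute to the results was not tested. FPKM (fragments scaled for sequencing depth and transcript length) are per length, so levels of different genes can be set side by side. The deposited rows are a selected set in which nearly all rows differ between the groups, so counts of calls are read against that background. AI-10-49 replicate 2 stood apart, with a highest value of 159 FPKM against 1843 and 1877 FPKM in the other AI-10-49 libraries, and results that it changes by much, or whose call it decides, are also given without it.

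Chaperones bind unfolded proteins and help them to fold, refold or be destroyed. HSP70 proteins hold and release their clients in a cycle driven by ATP. J-domain proteins (the DNAJ genes) deliver clients and start ATP hydrolysis, and nucleotide exchange factors such as HSP110 and the BAG proteins reset the cycle. Heat shock factors switch on the cytosolic set when unfolded protein builds up there. The ER has its own set around the HSP70 protein BiP, with disulfide isomerases and prolyl isomerases. The sensors IRE1, PERK and ATF6 of the unfolded protein response control that set. Blood cells of the granulocyte lineage fold large amounts of granule protein in the ER. In these cells the granule genes among the markers were at uneven levels, with DMSO means of 44.2 FPKM for AZU1, 2.05 for ELANE and 1.06 for PRTN3.

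After AI-10-49 most cytosolic and nuclear members were higher and most ER members were lower. Members were taken by name, so these counts include genes described below with other roles, such as DNAJC6, DNAJC24 and HERPUD1. Among the 22 cytosolic and nuclear members, 15 rose, 5 fell and 2 did not pass the test, whereas among the 23 ER members 7 rose, 14 fell and 2 did not pass (limma, adjusted p under 0.05). Of all 6230 tested rows 95.3% passed, 46.2% as higher and 49.1% as lower. The median log2 fold change was 0.50 for the cytosolic members and -0.58 for the ER members, and -0.28 for all tested rows. Without AI-10-49 replicate 2 the medians were 0.60, -0.43 and -0.21, and under quantile normalization 0.58, -0.30 and -0.06. The median of all tested rows also depends on level. With all libraries it was 0.25 for rows with a mean under 50 FPKM and -0.58 for rows of at least 50 FPKM. The compartments differ in level too, with a median DMSO mean of 13.7 FPKM for the cytosolic members and 31.1 FPKM for the ER members. They were not matched for level. Whether the compartments differ from each other, or from the rest of the table, was not tested as a set. In RNA from whole cultures, fewer cells that express a gene and less RNA per cell cannot be told apart. Over all members, 51 of 52 reached the filter of a mean of 1 FPKM in at least 1 group, and 25 rose, 21 fell and 5 did not pass. With AI-10-49 replicate 2 left out the member counts were 26 higher, 24 lower and 1 not passing, and 46.4% of all tested rows were then higher, 51% lower and 97.4% either. BAG3 was the 1 member that reached the filter through the AI-10-49 libraries alone, so it had to differ, and without it 14 cytosolic and nuclear members and 24 members in all rose. The cytosolic median without BAG3 was 0.49 with all libraries, 0.45 without AI-10-49 replicate 2 and 0.44 under quantile normalization. The larger cytosolic medians of 0.60 and 0.58 under these 2 settings therefore rest on BAG3. DNAJC28 stayed below the filter, at 0.869 ± 0.19 FPKM with AI-10-49 and 0.477 ± 0.17 FPKM with DMSO (SD, n = 3 each), and was not tested. In 49 of the 51 tested members all AI-10-49 libraries lay on the same side of all DMSO libraries, and the same held in 96.2% of all tested rows. A log2 fold change of at least 1 was reached by 7 cytosolic members and no ER member among those that rose (5.79% of all tested rows). Beyond -1 stood 1 cytosolic member and 5 ER members among those that fell (7.62% of all tested rows, and 13.4% counting both directions). These counts depend on AI-10-49 replicate 2 and on the scaling. Without that library FKBP2 stood at -0.93 and PDIA6 at -0.80, while FKBP11 reached -1.10. Under quantile normalization PDIA4, FKBP2 and PDIA6 stood at -0.96, -0.95 and -0.44, and HSPH1 and DNAJB6 at 1.02 and 1.25.

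**Figure D1:**
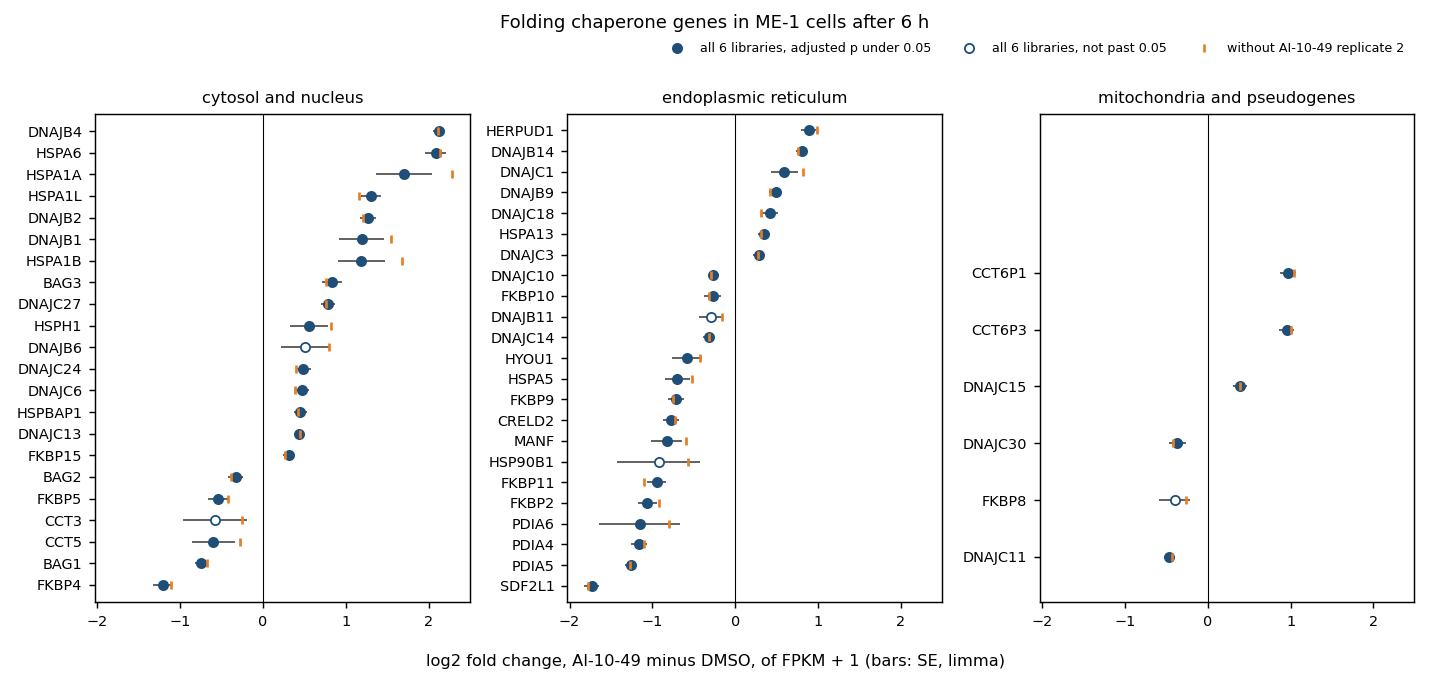
Log2 fold change (AI-10-49 minus DMSO, of FPKM + 1, horizontal axis) of the 51 tested members by compartment, with SE as bars; filled points passed an adjusted p of 0.05, open points did not, and orange ticks leave out AI-10-49 replicate 2. The cytosolic members reach from 2.13 for DNAJB4 to -1.21 for FKBP4, and the ER members from 0.89 for HERPUD1 to -1.73 for SDF2L1.

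The summed level of the cytosolic members was 1117, 653 and 1163 FPKM in AI-10-49 replicates 1, 2 and 3, against 821, 803 and 896 FPKM in DMSO replicates 1, 2 and 3, and all values by library below keep this order. Replicates 1 and 3 with AI-10-49 lay above every DMSO library and replicate 2 lay below them. The summed level of the ER members was 957, 657 and 971 FPKM with AI-10-49, against 1325, 1297 and 1408 FPKM with DMSO. Here all 3 AI-10-49 libraries were lower than all DMSO libraries. Abundant members weigh most in these sums. With DMSO, PDIA6 and HSP90B1 of the ER averaged 294 and 277 FPKM, and CCT3 and CCT5 of the cytosol 198 and 123 FPKM. How far the changes of these genes depend on AI-10-49 replicate 2 and on the scaling is given below.

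The inducible HSP70 genes of the cytosol rose. HSPA1A and HSPA1B encode the main stress-inducible HSP70, HSPA6 a further HSP70 that is nearly silent in unstressed cells, and HSPA1L an HSP70 best known from testis. HSPA6 stood at 8.75, 8.27 and 9.76 FPKM with AI-10-49, against 1.89, 0.926 and 1.27 FPKM with DMSO. The groups lie far apart, and the log2 fold change was 2.09 ± 0.13 (SE, limma adjusted p = 1.24e-08). HSPA1A stood at 88.8, 26.9 and 96.9 FPKM with AI-10-49, against 17.0, 17.3 and 20.5 FPKM with DMSO. All AI-10-49 libraries were higher, replicate 2 by far the least. Its log2 fold change was 1.71 ± 0.34 (SE, limma adjusted p = 0.000409), and 2.29 without AI-10-49 replicate 2. HSPA1B stood at 49.0, 17.1 and 48.6 FPKM with AI-10-49, against 14.0, 14.4 and 15.4 FPKM with DMSO. It shows the same low reading in replicate 2, with a log2 fold change of 1.19 ± 0.28 (SE, limma adjusted p = 0.00146), or 1.67 without that library. HSPA1L was at 4.03, 5.81 and 4.02 FPKM with AI-10-49, against 1.17, 1.25 and 1.33 FPKM with DMSO, and in this gene replicate 2 was the highest AI-10-49 library. Its log2 fold change was 1.31 ± 0.12 (SE, limma adjusted p = 4.43e-07).

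The HSP70 genes of this group are close relatives in sequence and position. In the RefSeq gene order HSPA1L, HSPA1A and HSPA1B stand next to each other on chromosome 6. Transcripts of HSPA1B and HSPA1A share 97.2% of bases over 2274 aligned bases, so reads can be split between them and their values are not independent. HSPA1L and HSPA6 share 81.6% and 81.0% of bases with HSPA1A. HSPA6 and HSPA1B each have 1 exon in the GENCODE annotation, and the 2 transcripts of HSPA1A have 1 and 2 exons. HSPA6, which stands apart on chromosome 1, rose with them.

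J-domain genes that work with cytosolic HSP70 rose alongside. DNAJB1, the best known HSP40 of the heat shock response, stood at 190, 92.2 and 199 FPKM with AI-10-49, against 63.0, 62.0 and 72.3 FPKM with DMSO. Every AI-10-49 library was higher, and the log2 fold change was 1.196 ± 0.27 (SE, limma adjusted p = 0.00109), or 1.55 without AI-10-49 replicate 2. DNAJB4, a close relative of DNAJB1, was at 15.3, 16.5 and 17.0 FPKM with AI-10-49, against 3.26, 2.84 and 2.77 FPKM with DMSO. Its mean was 5.50 times that in DMSO, and its log2 fold change was 2.13 ± 0.07 (SE, limma adjusted p = 1.16e-10). DNAJB2, which carries ubiquitinated clients to the proteasome, was at 14.8, 17.7 and 16.4 FPKM with AI-10-49, against 5.45, 5.80 and 7.31 FPKM with DMSO (log2 fold change 1.27 ± 0.10 SE, limma adjusted p = 8.37e-08). DNAJB6, which holds back protein aggregation, was at 186, 103 and 191 FPKM with AI-10-49, against 105, 103 and 116 FPKM with DMSO. AI-10-49 replicate 2 lies among the DMSO libraries, and the change of 0.51 ± 0.30 did not pass (SE, limma adjusted p = 0.112). Without that library it was 0.80 (limma adjusted p = 1.49e-06), and under quantile normalization of all libraries 1.25 (limma adjusted p = 0.000193).

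Nucleotide exchange factors moved in both directions. HSPH1, the cytosolic HSP110, was at 134, 77.2 and 138 FPKM with AI-10-49, against 75.7, 74.1 and 79.2 FPKM with DMSO. Replicate 2 again lies among the DMSO libraries. The log2 fold change was 0.56 ± 0.22 (SE, limma adjusted p = 0.0304), and 0.83 without AI-10-49 replicate 2 (adjusted p = 3.43e-07) or 1.02 under quantile normalization. Leaving out any of the other 5 libraries ended this call (adjusted p 0.0834 to 0.109). BAG3, which sends HSP70 clients to autophagy, was at 1.03, 1.34 and 0.969 FPKM with AI-10-49, against 0.202, 0.137 and 0.2001 FPKM with DMSO. The groups do not overlap, at very low levels. The size of its log2 fold change rests on the pseudocount, at 0.84 with 1 FPKM added and 2.11 with 0.1 FPKM added, and since BAG3 passed the filter through AI-10-49 alone its p-value is not given as support. BAG1, which links HSP70 to the proteasome, fell, at 21.1, 18.5 and 21.7 FPKM with AI-10-49, against 34.3, 33.6 and 36.8 FPKM with DMSO (log2 fold change -0.75 ± 0.08 SE, limma adjusted p = 1.46e-06). BAG2, an inhibitor of the ubiquitin ligase CHIP, fell by less, with a log2 fold change of -0.33 ± 0.09 (SE, limma adjusted p = 0.00478), or -0.21 without AI-10-49 replicate 1.

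FK506-binding co-chaperones of HSP90 fell. FKBP4 and FKBP5 encode FKBP52 and FKBP51, prolyl isomerases that sit on HSP90 in steroid receptor complexes. FKBP4 stood at 32.9, 26.2 and 32.5 FPKM with AI-10-49, against 66.5, 69.8 and 79.3 FPKM with DMSO, and had the strongest fall of the cytosolic members. Its log2 fold change was -1.21 ± 0.11 (SE, limma adjusted p = 5.56e-07). FKBP5 fell by 0.54 on the log2 scale, to 46.1 ± 6.27 FPKM with AI-10-49, against 67.0 ± 1.89 FPKM with DMSO (SD, n = 3 each), and under quantile normalization its log2 fold change was -0.28. The chaperonin, a ring of CCT subunits, folds actin and tubulin. CCT5 was at 101, 51.7 and 101 FPKM with AI-10-49, against 119, 116 and 133 FPKM with DMSO. Its log2 fold change was -0.60 ± 0.25 (SE, limma adjusted p = 0.0385), and -0.28 without AI-10-49 replicate 2. Leaving out any single DMSO library ended that call (adjusted p 0.0753 to 0.119). CCT3 was at 161, 83.4 and 171 FPKM with AI-10-49, against 195, 188 and 210 FPKM with DMSO. It did not pass, at -0.58 ± 0.38 (SE, limma adjusted p = 0.159), and without AI-10-49 replicate 2 it fell by 0.25 (limma adjusted p = 0.00802). Under quantile normalization the log2 fold change of CCT3 was 0.076 and that of CCT5 -0.17, and neither passed.

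The remaining cytosolic and nuclear members rose, mostly by less than 0.5 on the log2 scale. DNAJC27, a Rab-like GTPase with a J domain, was the largest of these at 3.62 ± 0.16 FPKM with AI-10-49 and 1.68 ± 0.17 FPKM with DMSO (SD, n = 3 each; log2 fold change 0.79, limma adjusted p = 3.51e-06). DNAJC24, which takes part in diphthamide synthesis, rose by 0.49 and DNAJC6, the clathrin uncoating factor auxilin, by 0.47. HSPBAP1, a partner of the small heat shock protein HSPB1, rose by 0.45, DNAJC13, of endosomes, by 0.44 and FKBP15 by 0.31. The pseudogenes CCT6P1 and CCT6P3 also rose, with log2 fold changes of 0.97 and 0.95. They share 94.7% and 93.1% of aligned bases with CCT6A, which was not analysed here, so which locus their reads came from is uncertain.

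**Figure D2:**
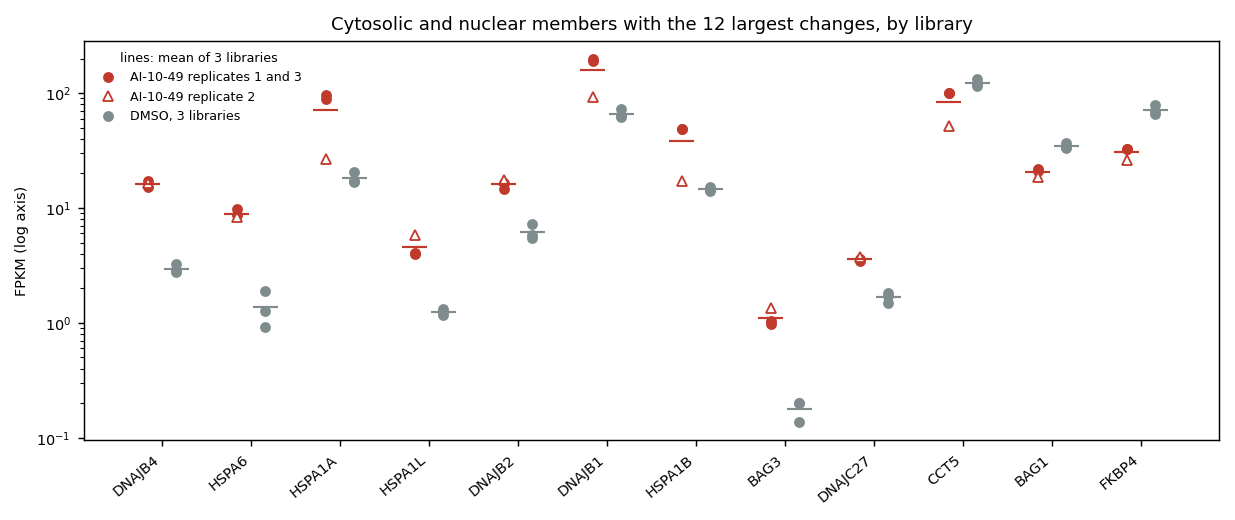
FPKM on a log axis of the 12 cytosolic and nuclear members with the largest changes in the 6 libraries, AI-10-49 in red (replicate 2 as an open triangle) and DMSO in grey, with group means as lines. In HSPA1A, HSPA1B and DNAJB1 replicate 2 stands well below the other AI-10-49 libraries but above all DMSO libraries, and DNAJB4 and HSPA6 show no such gap.

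Heat shock factors bind repeats of GAA in promoters. RefSeq promoter windows (300 bases, 250 of them before the gene start, build GRCh38.p14) matched 45 of the 52 members. DNAJC24, FKBP4, DNAJC1, FKBP10, FKBP8, CCT6P1 and CCT6P3 had no window. The heat shock element, spelled here as GAA, TTC and GAA with 2 free bases between neighbours and searched on both strands, stood in 2 of the 20 cytosolic and nuclear windows and in none of the 21 ER windows, against 0.49% of 35116 RefSeq windows. The 2 genes were HSPA6 and DNAJB6, whose levels are given above. Both stretches are shown because they hold this match, with its fixed letters in capitals and the free bases in lower case. The HSPA6 stretch covers chr1:161524400-161524519, plus strand, and the DNAJB6 stretch covers chr7:157336844-157336963, plus strand.

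HSPA6: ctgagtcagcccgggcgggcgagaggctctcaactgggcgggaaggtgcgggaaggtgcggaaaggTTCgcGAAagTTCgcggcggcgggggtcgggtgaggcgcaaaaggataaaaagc

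DNAJB6: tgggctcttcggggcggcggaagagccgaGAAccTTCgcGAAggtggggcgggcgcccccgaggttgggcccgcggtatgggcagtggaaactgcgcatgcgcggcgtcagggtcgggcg

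HSPA1A, HSPA1B, DNAJB1, DNAJB4 and HSPH1 had no match to these exact letters in this window. A match is a string of letters and not a bound site, and binding was not measured.

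Most ER members fell. The most reduced was SDF2L1, a partner of BiP and of the J-domain protein ERdj3, which stood at 8.95, 9.33 and 7.74 FPKM with AI-10-49, against 30.2, 28.3 and 35.1 FPKM with DMSO. The mean was 3.60-fold lower, with a log2 fold change of -1.73 ± 0.09 (SE, limma adjusted p = 2.43e-09). HSPA5, which encodes BiP itself, was at 58.4, 40.01 and 57.9 FPKM with AI-10-49, against 81.6, 83.7 and 86.9 FPKM with DMSO. No library of either group overlaps the other, and the log2 fold change was -0.70 ± 0.15 (SE, limma adjusted p = 0.000806), or -0.52 without AI-10-49 replicate 2 and -0.41 under quantile normalization. HYOU1, the HSP110-type exchange factor of BiP, was at 83.5, 59.8 and 81.8 FPKM with AI-10-49, against 110, 114 and 111 FPKM with DMSO. Its log2 fold change was -0.58 ± 0.18 (SE, limma adjusted p = 0.0087), and -0.43 without AI-10-49 replicate 2. Under quantile normalization HYOU1 did not pass (-0.11, adjusted p = 0.162), and with that library also left out it fell by 0.20 (adjusted p = 0.00698). HSP90B1, the HSP90 of the ER, was at 187, 88.8 and 186 FPKM with AI-10-49, against 276, 268 and 288 FPKM with DMSO. Its groups are apart, but the wide spread within AI-10-49 left the change of -0.92 ± 0.50 short of the threshold (SE, limma adjusted p = 0.092). Without AI-10-49 replicate 2 it was -0.57 (limma adjusted p = 2.35e-05), under quantile normalization -0.15 (adjusted p = 0.124), and by limma without the trend it passed (adjusted p = 0.0138).

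Disulfide isomerases fell in all 3 PDIA members. PDIA5 was at 20.2, 19.9 and 18.6 FPKM with AI-10-49, against 45.8, 48.3 and 50.9 FPKM with DMSO (log2 fold change -1.26 ± 0.07 SE, limma adjusted p = 9.1e-09). PDIA4 was at 34.3, 30.0 and 33.7 FPKM with AI-10-49, against 72.9, 73.0 and 77.2 FPKM with DMSO (log2 fold change -1.17 ± 0.10 SE, limma adjusted p = 2.1e-07). These genes of middle level show little of the replicate 2 gap. PDIA6, the most abundant member of all with DMSO, was at 164, 80.6 and 172 FPKM with AI-10-49, against 294, 278 and 309 FPKM with DMSO. Its log2 fold change was -1.15 ± 0.49 (SE, limma adjusted p = 0.0371), and -0.80 without AI-10-49 replicate 2 (adjusted p = 2.61e-06) or -0.44 under quantile normalization (adjusted p = 5.44e-05). Leaving out any of the other 5 libraries ended the call of PDIA6 (adjusted p 0.0503 to 0.14).

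Prolyl isomerases of the ER fell in all 4 members with a row. FKBP2 was at 29.4, 21.5 and 28.2 FPKM with AI-10-49, against 53.8, 51.7 and 61.8 FPKM with DMSO (log2 fold change -1.06 ± 0.12 SE, limma adjusted p = 2.4e-06). FKBP11 was at 6.20, 9.25 and 6.72 FPKM with AI-10-49, against 13.5, 16.4 and 15.1 FPKM with DMSO (log2 fold change -0.95 ± 0.11 SE, limma adjusted p = 6.08e-06). In FKBP11 replicate 2 was the highest AI-10-49 library and still below every DMSO library. FKBP9 fell by 0.72 to 1.05 ± 0.09 FPKM with AI-10-49, against 2.38 ± 0.06 FPKM with DMSO (SD, n = 3 each), and with a pseudocount of 0.1 its log2 fold change was -1.11. FKBP10 fell by 0.27 (limma adjusted p = 0.0185), a call that was lost without DMSO replicate 1 or AI-10-49 replicate 1 (adjusted p = 0.108 and 0.07).

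MANF and CRELD2 encode small ER proteins that can be secreted under ER stress. MANF was at 64.3, 40.7 and 67.4 FPKM with AI-10-49, against 97.4, 94.2 and 110 FPKM with DMSO (log2 fold change -0.83 ± 0.19 SE, limma adjusted p = 0.00105, -0.60 without AI-10-49 replicate 2 and -0.48 under quantile normalization). CRELD2 was at 5.29, 4.63 and 5.19 FPKM with AI-10-49, against 8.60, 8.63 and 10.9 FPKM with DMSO (log2 fold change -0.78 ± 0.09 SE, limma adjusted p = 4.59e-06). In both genes every AI-10-49 library was lower than every DMSO library.

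HERPUD1 went the other way. It encodes a membrane protein that organises the degradation of misfolded ER proteins, and stood at 42.5, 33.4 and 40.01 FPKM with AI-10-49, against 19.8, 19.0 and 22.4 FPKM with DMSO. The groups do not overlap, and the log2 fold change was 0.89 ± 0.09 (SE, limma adjusted p = 2.01e-06). The other ER members that rose are J-domain or HSP70 proteins. DNAJB14, which is anchored in the ER membrane with its J domain in the cytosol, was at 17.9, 20.4 and 19.6 FPKM with AI-10-49, against 11.1, 10.3 and 10.5 FPKM with DMSO (log2 fold change 0.80 ± 0.07 SE, limma adjusted p = 2.4e-07). DNAJC1, a J-domain protein of the ER membrane, was at 83.3, 52.3 and 83.1 FPKM with AI-10-49, against 46.5, 44.5 and 49.95 FPKM with DMSO (log2 fold change 0.59 ± 0.16 SE, limma adjusted p = 0.00385, and 0.81 without AI-10-49 replicate 2). DNAJB9, or ERdj4, which brings BiP to IRE1, rose by 0.49, to 9.52 ± 0.94 FPKM with AI-10-49 against 6.50 ± 0.12 FPKM with DMSO (SD, n = 3 each). DNAJC18, HSPA13 and DNAJC3 rose by 0.42, 0.34 and 0.28. DNAJC3, also called P58IPK, is a lumenal partner of BiP.

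The remaining J-domain members of the ER were lower or did not pass. DNAJC14 changed by -0.32 and DNAJC10, the ER reductase ERdj5, by -0.26 (limma adjusted p = 0.000598 and 0.00211). DNAJB11, or ERdj3, was at 63.4, 48.6 and 67.5 FPKM with AI-10-49, against 69.5, 70.5 and 79.4 FPKM with DMSO. The libraries do not overlap, but the change of -0.30 ± 0.14 did not pass (SE, limma adjusted p = 0.0647). It was -0.15 without AI-10-49 replicate 2 (adjusted p = 0.0535), 0.036 under quantile normalization, and -0.39 without AI-10-49 replicate 3, where it passed (adjusted p = 0.0332). Over all compartments, the 12 tested DNAJC members held 8 that rose and 4 that fell, and the 7 DNAJB members held 5 that rose and 2 that did not pass, DNAJB6 and DNAJB11.

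**Figure D3:**
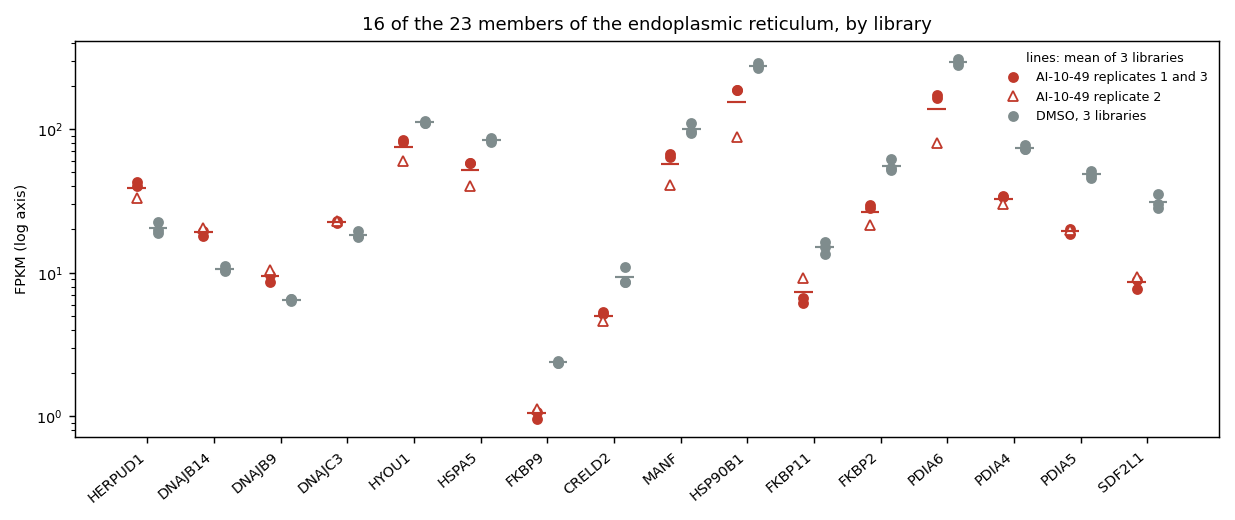
FPKM on a log axis of 16 of the 23 ER members in the 6 libraries, AI-10-49 in red (replicate 2 as an open triangle) and DMSO in grey, with group means as lines. From HYOU1 rightwards all AI-10-49 libraries lie below the DMSO libraries, and HERPUD1, DNAJB14, DNAJB9 and DNAJC3 lie above them.

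The unfolded protein response acts through short promoter elements. Of these, the ER stress element II stood in 1 ER gene that rose and in 2 that fell. The ER stress element and the unfolded protein response element stood in 0 of the 21 windows of members called higher. The ER stress element, CCAAT and CCACG with 9 free bases between them, was searched on both strands like all motifs here. It was found in 3 of 21 ER windows (HSPA5, CRELD2 and HSP90B1) and in 0.0769% of all RefSeq windows. The ER stress element II, ATTGG and CCACG with 1 free base between them, was found in 3 ER windows (HERPUD1, HYOU1 and SDF2L1) and in 0.0541% of all windows. None of the 20 cytosolic and nuclear windows held either element. The unfolded protein response element TGACGTGG stood in the windows of HYOU1 and DNAJC10 (0.729% of all windows), and in HYOU1 it overlaps an ER stress element II. The CEBP-ATF element TTGCATCA, which factors such as ATF4 and CHOP can bind, stood in the window of 1 of 45 members, HERPUD1 (0.866% of all windows). The E-box CACGTG, which MYC can bind, stood in 5 of 45 member windows, those of HSPBAP1, HERPUD1, DNAJB9, HSP90B1 and PDIA5, and in 7.26% of all windows.

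The stretches below are RefSeq sequence on the gene's own strand, build GRCh38.p14. They show the element that HERPUD1, higher with AI-10-49, shares with SDF2L1 and HYOU1, lower with AI-10-49, and the element of the BiP gene and its companions. Capitals mark the fixed letters of the ER stress, unfolded protein response and CEBP-ATF elements on either strand. The SDF2L1 stretch is chr22:21642102-21642221, plus strand. The HYOU1 stretch is chr11:119057266-119057405, minus strand, and the HERPUD1 stretch is chr16:56931942-56932061, plus strand. The HSPA5 stretch is chr9:125241364-125241483, minus strand. The CRELD2 stretch is chr22:49918494-49918613, plus strand, and the HSP90B1 stretch is chr12:103930210-103930349, plus strand.

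SDF2L1: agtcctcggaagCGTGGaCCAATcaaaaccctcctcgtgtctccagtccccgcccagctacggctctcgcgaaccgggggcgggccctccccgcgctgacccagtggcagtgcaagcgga

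HYOU1: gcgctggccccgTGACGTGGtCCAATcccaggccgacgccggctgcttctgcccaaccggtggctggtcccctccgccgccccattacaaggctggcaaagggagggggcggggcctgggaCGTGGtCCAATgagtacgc

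HERPUD1: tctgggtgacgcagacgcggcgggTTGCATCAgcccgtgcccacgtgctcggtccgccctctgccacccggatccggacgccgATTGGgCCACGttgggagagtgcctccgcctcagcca

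HSPA5: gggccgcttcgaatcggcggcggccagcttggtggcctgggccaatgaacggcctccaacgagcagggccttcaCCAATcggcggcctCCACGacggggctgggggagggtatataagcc

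CRELD2: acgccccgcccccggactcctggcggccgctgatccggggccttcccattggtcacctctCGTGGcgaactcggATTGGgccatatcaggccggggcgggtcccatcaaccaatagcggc

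HSP90B1: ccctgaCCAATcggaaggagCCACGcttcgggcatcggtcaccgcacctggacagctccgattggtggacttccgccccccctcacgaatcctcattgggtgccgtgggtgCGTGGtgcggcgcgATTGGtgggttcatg

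These letters describe the windows only. Of the genes shown, SDF2L1 changed by -1.73, HYOU1 by -0.58, HERPUD1 by 0.89, HSPA5 by -0.70 and CRELD2 by -0.78 on the log2 scale, and HSP90B1 did not pass.

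The 4 tested mitochondrial members had log2 fold changes of less than 0.5 in either direction. DNAJC11, a protein of the outer membrane, fell by 0.46, to 23.2 ± 1.25 FPKM with AI-10-49 against 32.4 ± 1.11 FPKM with DMSO (SD, n = 3 each; limma adjusted p = 4.36e-05). DNAJC30 fell by 0.37, and DNAJC15, which belongs to the protein import motor, rose by 0.39. FKBP8, which holds BCL2 at the outer membrane, was at 88.5, 63.3 and 80.9 FPKM with AI-10-49, against 98.9, 92.6 and 115 FPKM with DMSO. The change of -0.40 ± 0.18 did not pass (SE, limma adjusted p = 0.0503), and it was -0.26 without AI-10-49 replicate 2 (adjusted p = 0.0138). Leaving out AI-10-49 replicate 1 gave -0.50 (adjusted p = 0.0375), and quantile normalization gave 0.081.

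AI-10-49 replicate 2 was the lowest of its group in the abundant members. In all 16 members with a mean of at least 50 FPKM over all libraries, AI-10-49 replicate 2 was the lowest AI-10-49 library, and the same was true of 11 of the 36 members below 50 FPKM. Over the whole table the counts were 872 of 874 rows and 1928 of 5465 rows. Of the 35 members below 50 FPKM that were tested, 22 rose and 13 fell. Of the 16 members above, 3 rose, 8 fell and 5 did not pass, and without AI-10-49 replicate 2 the counts were 4, 11 and 1. The whole table leans the same way: of 5356 tested rows below 50 FPKM 2753 rose and 2558 fell, and of the 874 rows above 126 rose, 502 fell and 246 did not pass. HSPA1A and HSPA1B read at 0.29 and 0.35 times the mean of the other AI-10-49 libraries, which was below every other member, while HSPH1 read at 0.568 and DNAJB1 at 0.475. What sets this library apart was not tested.

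**Figure D4:**
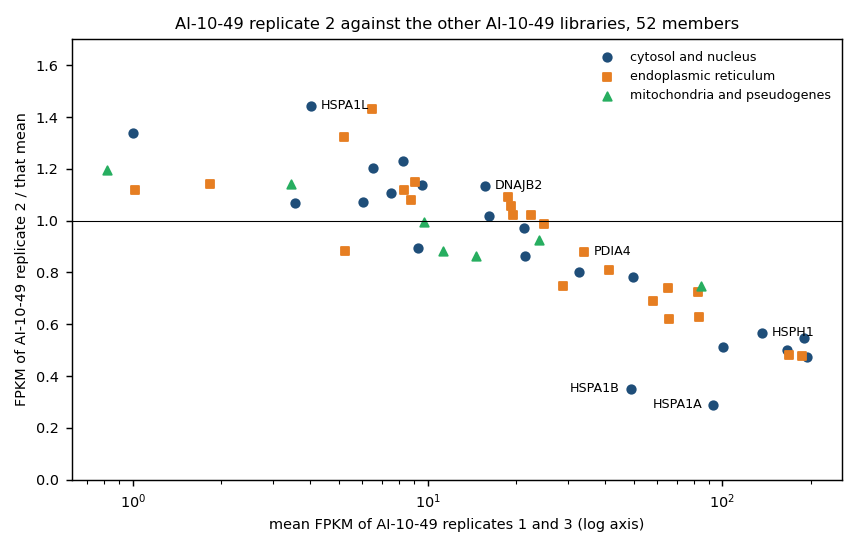
FPKM of AI-10-49 replicate 2 divided by the mean of AI-10-49 replicates 1 and 3 (vertical axis), against that mean on a log axis, for the 52 members by compartment, with a line at equal values. Abundant members lie below the line, and HSPA1A (0.29) and HSPA1B (0.35) lie below members of like level.

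The lists of the wider folding pathways held 96 further genes with a row, of which 95 were tested. Sensors and factors of the unfolded protein response rose in 9 and fell in 1 of 10 measured genes, of 21 on the list, with a median log2 fold change of 0.59. DDIT3, which encodes CHOP, changed by 2.81, TRIB3 by 2.61 and PPP1R15A by 1.62. All 3 belong to the PERK and ATF4 branch, which other stresses also use. The sensors themselves rose by less, ERN1 (IRE1) by 0.40, EIF2AK3 (PERK) by 0.38 and ATF6 by 0.35, and MBTPS1, the protease that activates ATF6, fell by 0.39. XBP1 and ATF4 were not analysed here. Among heat shock factor genes HSF2 rose by 0.30 and HSF2BP by 0.40, while HSBP1, which binds heat shock factor 1, fell by 0.65, and HSF1 was not analysed here.

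Enzymes that oxidise or fold proteins in the ER beyond the PDIA genes fell in 7 and rose in 3 of 11 measured genes, with 1 that did not pass and a median of -0.63, or -0.38 under quantile normalization. The 1 that did not pass was P4HB, at 141 ± 47.2 FPKM with AI-10-49 and 251 ± 6.84 FPKM with DMSO (SD, n = 3 each). It changed by -0.89 (limma adjusted p = 0.0691), by -0.57 without AI-10-49 replicate 2 (adjusted p = 1.59e-05) and by -0.15 under quantile normalization (adjusted p = 0.112). PRDX4, the ER peroxiredoxin, changed by -2.09, VKORC1L1 by -1.09 and VKORC1 by -1.04. The translocon and signal peptide list fell in 9 and rose in 2 of 16, with 5 that did not pass and a median of -0.61. Without AI-10-49 replicate 2 this list had 12 lower, 2 higher and a median of -0.28, and under quantile normalization 7 lower, 2 higher and a median of -0.20. SEC61A1, the channel subunit, changed by -0.998 (-0.60 under quantile normalization), SRPRB by -0.74 and SPCS3 by -0.70. Genes of ER-associated degradation rose in 8 and fell in 6 of 14, with a median of 0.34. HERPUD2, a relative of HERPUD1, changed by 0.87, the ubiquitin-conjugating enzyme gene UBE2G2 by -1.12 and the ligase gene RNF5 by -0.63 (-0.39 under quantile normalization).

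Co-chaperones of HSP70 and HSP90 rose in 7 and fell in 6 of 16 measured genes, with 3 that did not pass and a median of -0.30. The sign of that median rests on the scaling, since it was -0.10 without AI-10-49 replicate 2 (7 higher, 8 lower) and 0.15 under quantile normalization (8 higher, 6 lower). The phosphatase gene PPP5C changed by -0.88, TELO2 by -0.72 and PIH1D1 by 0.69. Cyclophilins and parvulins rose in 6 and fell in 5 of 12, with 1 that did not pass and a median of -0.05, which was 0.03 both without AI-10-49 replicate 2 and under quantile normalization. Their largest called changes were PPIL3 at 0.83, PPIL1 at -0.83 and PPIF, the cyclophilin of mitochondria, at -0.61. The 1 that did not pass was PPIB, at -1.27 (limma adjusted p = 0.104). It changed by -0.81 without AI-10-49 replicate 2 (adjusted p = 6.41e-06) and by -0.45 under quantile normalization (adjusted p = 0.000128). Chaperonin and prefoldin partners rose in 2 and fell in 2 of 5 tested genes (median 0.24, or 0.15 without AI-10-49 replicate 2). PFDN6 changed by -0.76, or -0.45 under quantile normalization. PFDN2 changed by -0.61 (limma adjusted p = 0.0393), but by -0.31 without AI-10-49 replicate 2, and it did not pass under quantile normalization (-0.15, adjusted p = 0.059). BBS10 stood at 0.26 (limma adjusted p = 0.0357) with overlapping groups, and without AI-10-49 replicate 2 its call was lost (0.15, adjusted p = 0.169). Mitochondrial chaperones and proteases fell in 6 and rose in 3 of 9 (median -0.58; 2 rose without AI-10-49 replicate 2), with HSCB at 0.81, GRPEL1, the exchange factor of mitochondrial HSP70, at -0.77 and CLPP at -0.75. These lists are read against the 46.2% and 49.1% of all tested rows that rose and fell, and the median of -0.28. That median was 0.25 for rows under 50 FPKM and -0.58 for rows of at least 50 FPKM, and the lists were not matched for level.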

How the data were processed

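Total RNA of ME-1 cells was sequenced in 6 libraries, 3 with AI-10-49 and 3 with DMSO. Per the submitters' processing notes, the tools were Cuffdiff, Cufflinks 2.2.0 and Bowtie2 2.1.0, with build hg19. The authors deposited FPKM for 6339 rows, and the sources used here do not say how these were selected. Depth is unknown: of 219 rows with a mean below 1 FPKM and no value at 0, at most 9 shared a ratio between libraries within 0.5%, so whole reads could not be recovered.

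Here log2(FPKM + 1) was fitted over the whole table with limma 3.58.1 in R 4.3.3 as AI-10-49 minus DMSO, two-sided, with a trend of variance on mean. The 6230 rows tested averaged 1 FPKM or more with AI-10-49 or with DMSO. P-values were adjusted over these rows by the Benjamini-Hochberg method, with a threshold of 0.05. The deposited rows are a selected set, and 95.3% of those tested passed. The adjusted p-values are therefore not error rates over all genes, and how the selection affects them was not tested. Fold changes on this scale understate those of low genes. Group values are means ± SD. The procedure was tested on simulated data. A p-value measures the spread between these libraries of 1 cell line.

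Members and lists were chosen with earlier results of these data known. All members could be named. From each pathway list the 3 largest called changes were named, plus HSF1, HSF2, XBP1, ATF6, ERN1, EIF2AK3, ATF4 and DDIT3 where a row exists. Other settings tried were leaving out single libraries, a replicate block, quantile or median scaling, pseudocounts of 0.5 and 0.1, filters at 5 FPKM or none, limma without the trend, a stricter threshold of 0.01 and a log2 fold change of at least 1. Motifs were searched in RefSeq windows, and transcript identity and exon counts came from GENCODE 29, both on GRCh38, with Biopython 1.88.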

Additional observations from a re-analysis of the deposited data

How the results depend on the processing

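Quantile normalization without AI-10-49 replicate 2 was chosen after seeing the data, and the remaining settings were planned. A minimum log2 fold change of 1 left 13 members, 8 cytosolic and nuclear, 5 of the ER and 0 mitochondrial, with 836 of all rows and 8 pathway genes, by construction. Without a filter 5 mitochondrial members passed, since DNAJC28 was then tested and FKBP8 passed. Quantile normalization gave CCT3 0.076, FKBP8 0.081 and DNAJB11 0.036, and with AI-10-49 replicate 2 also left out CCT3 0.013 and DNAJB11 0.011. None of these was called, and the cause was not tested. Quantile normalization of all libraries moved the median of all rows from -0.28 to -0.06, of the cytosolic members to 0.58 (0.44 without BAG3) and of the ER members to -0.30. When single libraries were left out, 42 to 50 members passed (18 to 22 cytosolic and nuclear, 19 to 22 ER, 3 to 4 mitochondrial), with 5723 to 6067 of all rows and 76 to 90 pathway genes. The replicate number as a block gave 47 members, 20 cytosolic and nuclear, 21 ER and 4 mitochondrial, and PDIA6 did not pass there (adjusted p = 0.0647). The deviations of same-numbered libraries from their group means had correlations across genes of -0.15, 0.147 and 0.247. Not every library correlated best with its own number. Deviations from a group mean are not independent within the group, so this check cannot settle whether the numbers are pairs. The labels do not say what the numbers pair, and they were not treated as pairs. Of 759 member values under alternatives, 720 kept direction and side of the threshold, 20 lost the call, 14 gained it and 5 changed sign. With depth unknown, the precision of low members such as BAG3 is that of the spread among libraries.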
